A study of Homo sapiens with 6 samples.

Results

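The nuclear genes for the subunits of respiratory chain complexes I, III and IV and of the ATP synthase (complex V) were followed through cardiac organoid differentiation of H9 human embryonic stem cells. Members were all protein-coding genes of the expression table whose names start with NDUF (assembly factors named NDUFAF left out), UQCR, COX4 to COX8 or ATP5, and these were 87 of 58735 genes. Complex I had 37 of them, complex III 9, complex IV 19 and complex V 20, and 2 were readthrough genes that join a subunit gene to its neighbour. NDUFA4 and its paralog NDUFA4L2 were placed with complex IV, where NDUFA4 is known to belong in spite of its name. ATP5S, a coupling factor that is not part of the enzyme, was kept because the rule takes it.

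RNA of undifferentiated H9 cells at day 0 and of cells collected at days 2, 3, 4, 6 and 30 of the differentiation was sequenced as poly-A RNA, with 1 library per day and 10 organoids harvested for each. H9 is 1 embryonic stem cell line, and no other genotype or agent is named in the labels. The libraries held 13500887 to 15526924 reads. Values are FPKM, reads per kilobase of gene length over a denominator for each library, and since each day had 1 library no difference has a replicate check and no p-value is given. All intervals are 95% intervals of the read counts and cover counting error only.

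Electrons from NADH and succinate enter the respiratory chain of the inner mitochondrial membrane at complexes I and II, pass through complex III and cytochrome c, and reduce oxygen at complex IV. The protons pumped on the way drive the ATP synthase. The catalytic heart of complexes I, III and IV is in part encoded by the mitochondrial genome, and the nuclear genes supply the other core subunits, the accessory subunits and nearly all of the ATP synthase. Heart muscle is rich in mitochondria, and adult heart and skeletal muscle are known for their own isoforms of some complex IV subunits, COX6A2 and COX7A1 among them, in place of COX6A1 and COX7A2.

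The labels were compared with defining genes first. Of 5 pluripotency genes all were at 1 FPKM or more at day 0 and 1 was at day 30, with a summed level of 1449 and 6.86 FPKM. Of 10 cardiomyocyte genes 2 were at 1 FPKM or more at day 0 and 10 at day 30. Their summed levels were 5.31, 6.38, 11.8, 22.1, 419.8 and 236 FPKM from day 0 to day 30. The last 2 sums rest largely on MYL7, with 336 FPKM at day 6 and 64.0 at day 30. The median of the 10 genes was 2.51 FPKM at day 6 and 16.6 at day 30. Genes of other cells were present at day 30 as well. The summed level of 6 fibroblast genes was 16.8 FPKM at day 0 and 1751 at day 30, and that of 5 hepatic endoderm genes 0.166 and 481. The sum of 4 neuronal genes was 1.56 and 36.1, but the list was divided. At day 30 STMN2 had 25.8 FPKM and SNAP25 9.64, while TUBB3 had 0.640 and ELAVL4 0. STMN2 had 27.8 FPKM already at day 3. In such bulk samples fewer cells of a type and less RNA per cell cannot be told apart, and the part of the cell mixture in the values below was not tested.

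Promoters of 4 members are printed because the results below turn on them: COX6A1 and COX6A2 as a widely expressed and a muscle isoform of 1 subunit, NDUFS6 as the complex I subunit with the largest fall between day 0 and day 30 among those measured, and NDUFA4L2 as the member with the widest range among those at 1 FPKM or more in every library. Each sequence lies upstream of the gene starts annotated in RefSeq and GENCODE, is given 5′ to 3′ on the strand of the gene, and comes from RefSeq (GRCh38.p14). Capitals mark GCGCATGCG or its reverse complement, the site of nuclear respiratory factor 1, in COX6A1 and NDUFS6. They mark a loose MEF2-like pattern (CTA, any 4 bases, TAG) in COX6A2 and the core of the hypoxia response element, GCGTG, in NDUFA4L2. The middle bases of this pattern were not restricted to A and T, and in COX6A2 they are AGAA. Forms that start with TTA or end in TAA were not searched. The stretch ttaaatatag in the printed COX6A2 sequence, left in lower case, is such a form.
COX6A1, chr12:120437863-120438089, plus strand: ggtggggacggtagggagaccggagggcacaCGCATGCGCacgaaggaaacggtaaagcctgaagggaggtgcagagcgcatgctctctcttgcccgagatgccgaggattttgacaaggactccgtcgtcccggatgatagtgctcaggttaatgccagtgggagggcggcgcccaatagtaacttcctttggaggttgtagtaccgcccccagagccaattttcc
COX6A2, chr16:31428429-31428610, minus strand: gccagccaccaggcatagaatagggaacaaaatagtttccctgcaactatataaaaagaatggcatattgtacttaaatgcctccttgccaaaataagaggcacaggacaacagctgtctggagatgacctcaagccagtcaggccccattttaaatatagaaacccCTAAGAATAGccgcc
NDUFS6, chr5:1801157-1801399, plus strand: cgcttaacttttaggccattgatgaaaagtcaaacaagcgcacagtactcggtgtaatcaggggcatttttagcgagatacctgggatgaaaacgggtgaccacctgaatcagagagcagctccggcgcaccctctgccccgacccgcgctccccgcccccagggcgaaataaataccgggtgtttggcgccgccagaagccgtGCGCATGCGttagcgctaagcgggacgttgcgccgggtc
NDUFA4L2, chr12:57240763-57241012, minus strand: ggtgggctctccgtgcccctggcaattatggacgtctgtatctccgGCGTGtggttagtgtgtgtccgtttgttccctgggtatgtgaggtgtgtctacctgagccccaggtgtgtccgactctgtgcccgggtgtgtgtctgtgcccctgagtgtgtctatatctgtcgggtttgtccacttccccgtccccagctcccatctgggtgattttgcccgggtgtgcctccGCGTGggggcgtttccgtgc

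Nuclear respiratory factors, ETS factors of the GABP type and YY1 are known to act on many respiratory genes. RefSeq promoters of 300 bases (250 before the start and 50 after) were at hand for 70 of the 87 members, and both strands were searched. GCGCATGCG was found in 9 of the 70, or 12.9%, against 2.10% of all 27305 promoters of the table. These 9 were COX6A1, NDUFS6, NDUFS7, NDUFA8, NDUFB4, ATP5F1C, ATP5MC2, ATP5ME and ATP5PF. CCGGAAG, the ETS core, was in 18 (25.7%, against 10.7%), and AAGATGGCG, the YY1 site, was in 7 (10%, against 1.85%). The loose MEF2-like pattern was in 1 of the 70, COX6A2, or 1.43%, against 2.83% of all promoters. Both shares leave out forms that start with TTA or end in TAA. The hypoxia core (ACGTG or GCGTG) was in 41, or 58.6%, against 48.4%, so it is common in promoters of any kind. The ETS core and the YY1 site share the letters AAG and can overlap, and a match describes these letters alone.

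Of the 87 members 73 had at least 1 FPKM in every library, and 80 in at least 1. The 7 that stayed under 1 FPKM throughout were COX6A2, COX7B2, COX8C, NDUFA9, ATP5MGL and the readthrough genes NDUFC2-KCTD14 and ATP5MF-PTCD1, and of these COX7B2 and NDUFC2-KCTD14 had 0 reads in all 6 libraries. The summed level of all members was 2493 FPKM at day 0, 2459 at day 2, 1887 at day 3, 1701 at day 4, 1716 at day 6 and 1622 at day 30. As a share of reads this was 0.600% at day 0 and 0.337% at day 30. The days 0 and 2 thus stood above the 4 later days. Of the 80 members that reached 1 FPKM, 34 were highest at day 0 and 27 at day 2, while 7 were highest at day 30. The lowest value fell on day 30 for 38 of them, on day 4 for 16, on day 6 for 13 and on day 2 for 0.

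All 4 complexes took part in the lower level after day 2. Complex V held 0.247% of the reads at day 0 and 0.125% at day 30, and complex I 0.157% and 0.0884%. Complex III stood at 0.0829% and 0.0533% and complex IV at 0.113% and 0.0703%. Complex V and complex I were higher at day 6 than at day 4 (0.186% against 0.167%, and 0.129% against 0.116%), whereas complexes III and IV were not.

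The 13 subunits encoded by the mitochondrial genome made up 6.29% of reads at day 0, 5.13% at day 2, 2.29% at day 3, 4.14% at day 4, 3.31% at day 6 and 1.39% at day 30. All 13 had less FPKM at day 3 than at day 2, with a median log2 difference of -1.20, and all 13 had more at day 4 than at day 3, with a median of 0.83. Of these differences 12 and 3 reached the size of a call. Of all genes 4.98% were called lower at day 3 and 4.23% higher at day 4. The median of the nuclear members from day 3 to day 4 was -0.07. The ratio of summed mitochondrially encoded to summed nuclear FPKM, which is free of scaling between libraries, was 26.6, 20.9, 11.5, 22.8, 17.2 and 10.1 from day 0 to day 30. At day 30 all 13 were lower than at day 0, with a median log2 difference of -1.94. The smallest fall was that of MT-CYB, the cytochrome b of complex III, from 2777 to 1149 FPKM, and the largest that of MT-ATP8, of the ATP synthase, from 481 to 30.1 FPKM, a gene that overlaps MT-ATP6.

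**Figure D1:**
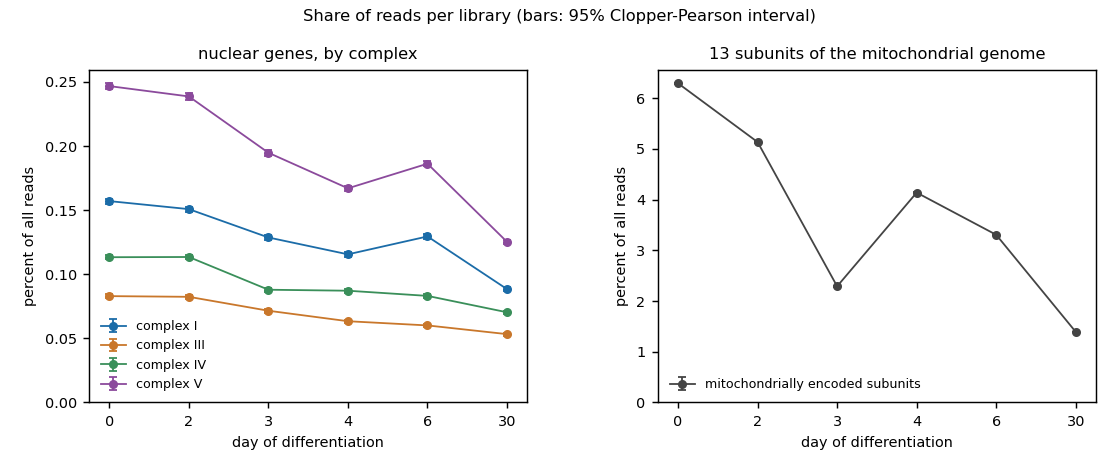
Share of all reads taken by the nuclear members of each complex (left) and by the 13 mitochondrially encoded subunits (right), against day of differentiation in equal steps, 1 library per day; bars are 95% Clopper-Pearson intervals and are mostly smaller than the points. The nuclear shares are lower at day 30 than at day 0 in each complex, and the mitochondrially encoded share dips to 2.29% at day 3 before 4.14% at day 4.

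Pairs of libraries were then compared gene by gene on log2(FPKM + 1). A gene counted as measured at 1 FPKM or more in either library, and a difference of 1 or more in size was a call. Over the 6 comparisons 20 members were called at least once, and 60 of the measured members never were.

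The step from day 0 to day 2 asks what changed as the cells left the stem cell state. Here 3 of 79 members were called higher and 0 lower, while 8.78% of all genes measured were higher and 7.75% lower. The median difference of the members was -0.02, against -0.03 over all genes, and it was 0.05 when scaled by read totals. NDUFA1, a small membrane subunit needed for complex I assembly, had 12.7 FPKM at day 0 and 32.3, 21.7, 22.8, 20.7 and 20.2 on the following days. It was 2.55-fold higher at day 2 (2.10 to 3.11) and stayed above its day 0 level in all later libraries. Of its exon bases 44.5% overlap other genes on the other strand, RNF113A first among them. Strand use in the counting is not given in the sources, and the part of this overlap was not tested. COX6A1 (ENSG00000111775, chr12:120438090-120440742), the widely expressed form of complex IV subunit VIa, had 8.55, 18.6, 11.8, 9.60, 11.0 and 10.8 FPKM. Its day 2 value was 2.18-fold the day 0 value (1.81 to 2.62) and stood above all others. NDUFA4L2 was the third gene called, and is described with its paralog below.

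At day 3 most members stood lower than at day 2. Of 79 measured, 65 had a difference below 0, and the median was -0.33 against -0.02 over all genes. Under TPM these medians were -0.13 and 0.20 over the same genes, and the count below 0 is that of the deposited scale. The size of most differences was small. Calls numbered 3 lower (3.80%) and 1 higher (1.27%), against 4.98% of all genes lower and 7.13% higher. Of protein-coding genes 3.11% were lower and 4.28% higher. Under TPM 2 members were lower and 3 higher, so the balance of the calls depends on the scaling. The share of all genes called was not counted under TPM. The counting interval of the fold lay below 1 for 56 members (70.9%) and above 1 for 7 (8.86%), against 33.8% and 30.6% of all genes. Intervals narrow with the number of reads, so these shares also depend on the level of a gene.

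The 3 members called lower at day 3 belong to different parts of the machinery. NDUFS6 (ENSG00000145494, chr5:1801400-1816605), a zinc-binding accessory subunit of the peripheral arm of complex I, had 27.7, 31.6, 13.3, 16.7, 17.7 and 8.03 FPKM. It was 2.39-fold lower at day 3 than at day 2 (2.07 to 2.75). ATP5PD (ENSG00000167863, chr17:75038863-75046985), subunit d of the peripheral stalk of the ATP synthase, had 33.7, 33.0, 14.2, 10.1, 10.2 and 8.22 FPKM. It was 2.32-fold lower at day 3 than at day 2 (2.12 to 2.54), and its values at days 0 and 2 stood far above the others. Under TPM scaling its log2 difference was -0.97, just short of a call. ATP5MC1, a gene for subunit c, was 2.69-fold lower at day 3 than at day 2 (2.21 to 3.28).

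From day 3 to day 4 NDUFA4L2 alone was called, 1 lower of 80 members and 0 higher, where 3.59% of all genes were lower and 4.23% higher. From day 4 to day 6, 3 of 79 were lower and 0 higher, against 6.71% and 5.51% of all genes, and all 3 were minor isoforms or paralogs of complex IV subunits, NDUFA4L2, COX6B2 and COX7A1. From day 6 to day 30, 2 of 78 were higher and 2 lower, where 21% of all genes were higher and 15.3% lower. Scaled by read totals 1 was higher and 14 lower, and under TPM 5 were higher and 13 lower. The shares of all genes called were not counted on these scales, so these counts have no background beside them. This last step covered more days than the others. The members' median was -0.13, against 0.08 over all genes, and its size depends on the scaling. Over the genes measured on the deposited scale the members' median was -0.53 by read totals, -0.44 under TPM and -0.27 under TMM. All genes then gave -0.28, -0.20 and -0.04. NDUFS6 was 2.20-fold lower (1.82 to 2.67), ATP5MF, a membrane subunit of the ATP synthase, was 2.67-fold lower (2.29 to 3.12), and the 2 higher members were COX6B2 and NDUFA4L2. NDUFA4L2 reached 0.85 when scaled by read totals and was then not called. The median was 0.28 for the 9 genes of complex III, 0.08 for complex IV, -0.22 for complex I and -0.23 for complex V. Scaled by read totals these medians were -0.14, -0.34, -0.62 and -0.64, so the sign for complexes III and IV depends on the scaling while the order of the complexes was kept.

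**Figure D2:**
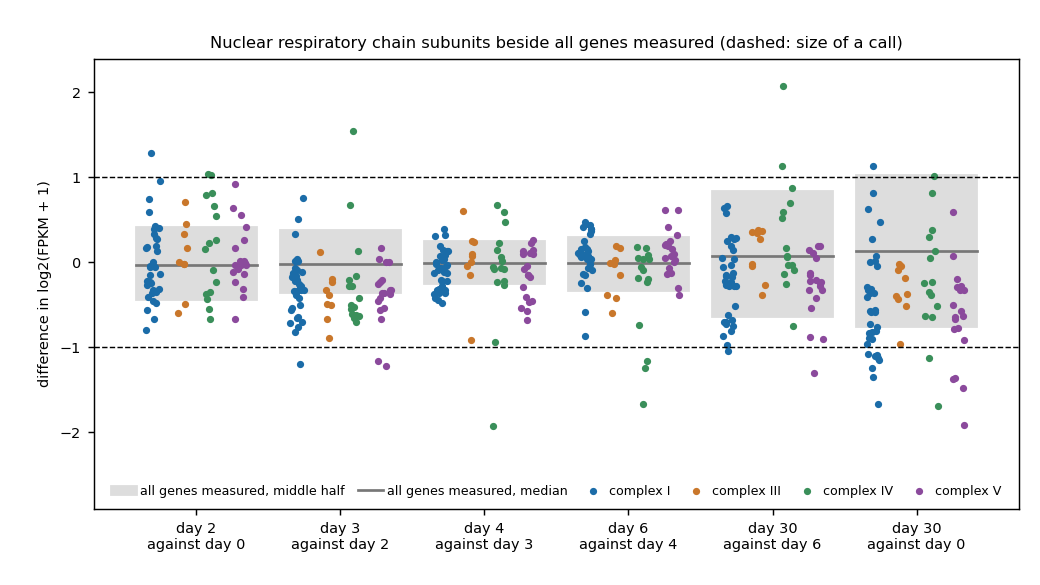
Difference in log2(FPKM + 1) of each measured member in the 6 comparisons, coloured by complex, beside the range between the quartiles (grey box) and the median (grey line) of all genes measured; dashed lines mark the size of a call. In day 3 against day 2 and in day 30 against day 0 most members lie below the median of all genes, with medians of -0.33 and -0.46, and few reach a dashed line.

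Day 30 against day 0 compares the cultured organoids with the stem cells. Of 78 members measured, 62 had a difference below 0, and the median was -0.46 against 0.13 over all genes. Members called lower numbered 14 (17.9%), near the 19.1% of all genes that were lower, and members called higher 2 (2.56%), where 25.9% of all genes were higher. The share of falls was thus close to that of all genes, and the share of rises was below it. Counting intervals lay below 1 for 55 members (70.5%) and above 1 for 10 (12.8%), against 36.9% and 43.1% of all genes. Among genes that reached 20 FPKM, 8 of 37 members were lower and 0 higher, against 22% and 34.1% of all genes. The comparison shares its day 0 library with day 2 against day 0 and its day 30 library with day 30 against day 6.

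Within complex I the 7 nuclear core subunits and the accessory subunits stood apart in size. The core subunits, which together hold the flavin and the iron-sulfur clusters, had a median difference of -0.04 with 0 called, and the 28 accessory subunits measured had a median of -0.78 with 8 called lower (28.6%) and 1 higher (3.57%), against 19.1% and 25.9% of all genes. NDUFV1, the flavin and NADH-binding subunit, had 16.9, 16.4, 15.7, 12.4, 17.3 and 17.8 FPKM, with its lowest value at day 4. NDUFS1, the largest iron-sulfur subunit, had 9.57, 6.75, 5.15, 4.30, 4.91 and 6.03 FPKM, and its day 0 value was the highest. Of the 7 core subunits 3 had a difference above 0 at day 30 and 4 below 0.

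The accessory subunits called lower at day 30 were NDUFS5, NDUFS6, NDUFB4, NDUFB5, NDUFAB1, NDUFA12, NDUFC1 and NDUFC2. NDUFS5 was the most abundant member of complex I per length, with 247, 205, 126, 128, 139 and 115 FPKM, and was 2.15-fold lower at day 30 than at day 0 (1.98 to 2.34). NDUFS6 had the largest fall among complex I genes at 1 FPKM or more on either day, 3.45-fold (2.87 to 4.17). NDUFC1, a small membrane arm subunit, was 2.86-fold lower (2.32 to 3.55), and 18.5% of its exon bases overlap other genes on the same strand, MGARP first among them. NDUFAB1, the mitochondrial acyl carrier protein, which also serves lipoic acid synthesis, was 2.42-fold lower (2.17 to 2.71). NDUFAB1 had 52.7, 40.8, 32.2, 25.6, 24.5 and 21.8 FPKM, lower on each later day. The membrane arm subunits NDUFB4 (68.1 and 31.6 FPKM at days 0 and 30), NDUFB5 (10.2 and 4.16) and NDUFC2 (5.19 and 1.92) and the peripheral arm subunit NDUFA12 (15.4 and 6.42) were lower by 2.16-fold to 2.70-fold. NDUFB7 had its 91.7 FPKM peak at day 2, between 54.4 at day 0 and 62.9 at day 3, and stood at 31.9 at day 30.

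NDUFA13, known also as GRIM-19, was the only member of complex I called higher at day 30, with 0.991, 1.63, 2.32, 2.66, 2.61 and 3.38 FPKM and a 3.41-fold difference (2.35 to 5.04). NDUFA11 and NDUFA1 followed, with 0.967 and 2.46 FPKM and 12.7 and 20.2 FPKM at days 0 and 30, and were not called. Scaled by read totals NDUFA13 reached 0.94 and was not called. NDUFA13 overlaps AC011448.1 on the same strand over 21.0% of its exon bases, and that gene had 0.373 FPKM at day 0 and 1.71 at day 30. NDUFA7 was the lowest of the complex I genes that reached 1 FPKM, with 1.16 FPKM at day 4 and 0.229 at day 30.

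In complex III all 9 members had differences below 0 at day 30, with a median of -0.37 and 0 called. The cytochrome c1 gene CYC1 of this complex lies outside the name rule and is given further below. UQCRFS1 (ENSG00000169021, chr19:29205321-29213541), the Rieske iron-sulfur protein, had 37.0, 24.2, 14.9, 16.0, 14.4 and 18.5 FPKM. It fell short of a call at -0.96, and only its first 2 values stood above 20. UQCRC1, a core protein, had 61.0, 61.1 and 66.8 FPKM up to day 3 and 35.1, 35.7 and 46.2 after it. The other core protein, UQCRC2, had 40.6, 28.6, 24.8, 24.0, 23.7 and 31.2 FPKM. Both core proteins had their lowest values at days 4 and 6 and higher ones at day 30. Among the small subunits UQCR11 had 7.17 FPKM at day 0 and 4.74 at day 30, and the nearest to no difference were UQCRB (11.2 and 11.1), UQCRQ (23.9 and 23.3) and UQCR10 (28.9 and 27.1). UQCRH, the hinge protein, was the most abundant of the complex per length, at 61.6 to 105 FPKM, and the lowest was its intronless relative UQCRHL.

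In complex IV the catalytic subunits are mitochondrially encoded, and the nuclear ones surround them. The median was -0.24, with 2 called lower and 1 higher of 15, under the shares of all genes. COX7C, a small membrane subunit, had 126, 79.5, 59.3, 69.8, 61.3 and 57.6 FPKM and was 2.19-fold lower at day 30 than at day 0 (2.06 to 2.33). Its early value stood far above the rest, and the levels from day 3 on lay close together. COX5A had 59.8 and 37.9 FPKM at days 0 and 30 and COX5B 44.1 and 37.5, and neither was called.

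In complex V, 4 of 19 members (21.1%) were called lower at day 30 and 0 higher, near the 19.1% of all genes called lower. The median was -0.63, with 17 differences below 0 and 2 above. The catalytic β subunit gene ATP5F1B (ENSG00000110955, chr12:56638175-56646068) was the most abundant of all members per length, with 351, 298, 232, 175, 188 and 204 FPKM. Its day 30 level was 1.72-fold under that of day 0 (1.67 to 1.78), short of a call. ATP5F1A, for the α subunit, had 64.1, 48.0, 41.3, 36.5, 37.3 and 33.5 FPKM and also fell short. ATP5PD, of the peripheral stalk, had the largest fall of all measured members, 4.10-fold (3.64 to 4.63).

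The other 3 lower members of complex V were ATP5MF and ATP5MG, subunits f and g of the membrane part, and ATP5MC1. ATP5MF was 2.79-fold lower (2.39 to 3.27), with 21.0, 28.4, 24.0, 15.8, 20.01 and 7.51 FPKM, so its low value was that of day 30. ATP5MG was 3.41-fold lower (2.65 to 4.43), at 6.37 and 1.87 FPKM. Against these ATP5F1D, for the δ subunit of the central stalk, had 19.4, 37.8, 30.0, 35.3, 26.8 and 29.8 FPKM, above day 0 on all later days but not called at day 30. ATP5F1E, for the ε subunit beside it, had 8.93 and 9.46 FPKM at days 0 and 30. ATP5MGL, a paralog of subunit g, had 0.0861 and 0.304 FPKM, from 1 and 3 reads. Its intervals overlap (0.00218 to 0.480 and 0.0627 to 0.888), so a difference was not detectable. ATP5IF1, the inhibitor that binds the enzyme when it runs in reverse, had 19.2, 18.8, 21.2, 12.9, 17.5 and 11.7 FPKM.

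**Figure D3:**
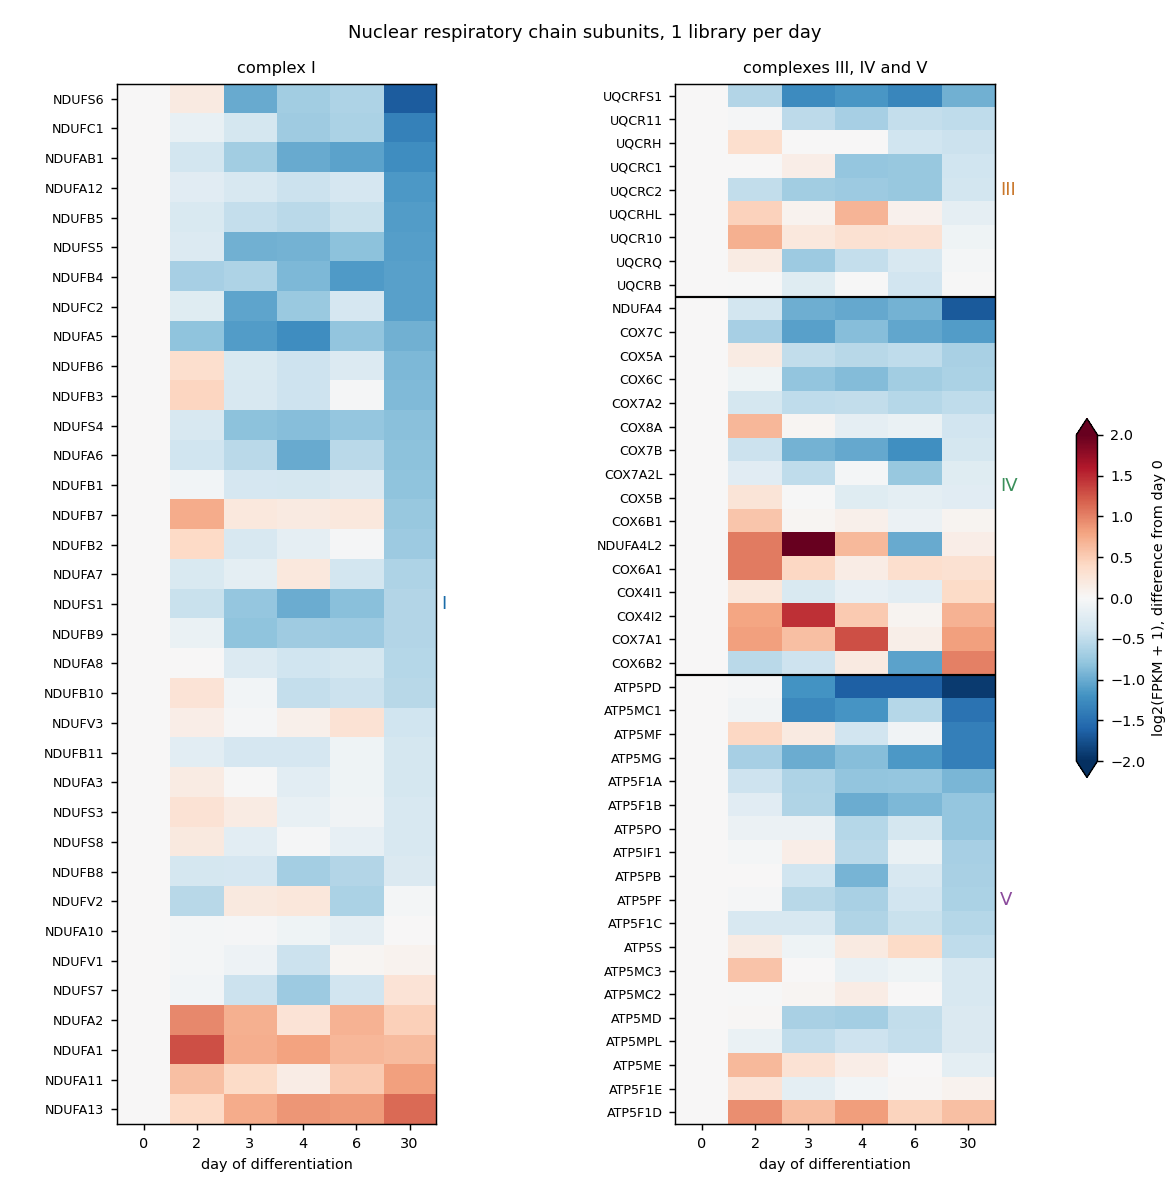
Difference in log2(FPKM + 1) from day 0 for 79 of the members that reached 1 FPKM, by complex and ordered by the value at day 30; colours saturate at 2 and -2, which NDUFA4L2 passes at day 3. Complex I shows 8 accessory genes at or below -1 at day 30, and NDUFA4L2, COX4I2, COX7A1 and COX6B2 vary in patterns unlike the rest of complex IV.

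Isoforms were compared as shares of FPKM within a library, which do not depend on the scaling between libraries. NDUFA4L2 (ENSG00000185633, chr12:57234903-57240715), a paralog of NDUFA4 known as a target of the hypoxia-inducible factor HIF-1, varied most among the members that reached 1 FPKM in all 6 libraries. It had 3.04 FPKM at day 0, 7.28 at day 2, 23.2 at day 3, 5.37 at day 4, 1.01 at day 6 and 3.43 at day 30. This was a single peak at day 3, with a 3.19-fold rise from day 2 (2.81 to 3.62), a 4.32-fold fall to day 4 (3.75 to 5.01) and a further 5.31-fold fall to day 6 (3.89 to 7.38). NDUFA4 itself had 46.6, 35.8, 23.3, 22.4, 23.8 and 13.8 FPKM and was 3.37-fold lower at day 30 than at day 0 (3.09 to 3.69). The share of NDUFA4L2 in the pair was 6.12%, 16.9%, 49.95% (47.8 to 52.1), 19.3%, 4.07% and 19.9% from day 0 to day 30. By principal transcript length the share at day 3 was 58.6%, and by reads without a length 44.1%, so which of both genes was higher at day 3 depends on the length used. The share was highest at day 3 by each of these.

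Genes of the hypoxia response were counted beside it. At day 2 against day 0, when NDUFA4L2 was higher, 3 of the 9 measured were lower and 0 higher. Of all genes 7.75% were lower and 8.78% higher. At day 3 against day 2, 3 of 10 hypoxia genes were higher and 0 lower, beside 7.13% and 4.98% of all genes. At day 4 against day 3, 4 were lower and 0 higher, beside 3.59% and 4.23%. At day 30 against day 6, 8 were higher, beside 21% of all genes. The summed level of the hypoxia genes was 846, 564, 986, 524, 296 and 1005 FPKM from day 0 to day 30. Much of it was SLC2A1, with 509, 288, 402, 188, 79.8 and 384 FPKM. The median of the 10 genes was 20.5, 17.7, 41.8, 25.6, 14.3 and 98.7 FPKM, so by the median day 30 stood well above day 3. NDUFA4L2 shared the high value at day 3 and the low one at day 6, and was also called higher at day 30 against day 6. At day 30 it stood at 3.43 FPKM, under its 23.2 at day 3. The list went both ways between these days. BNIP3 had 213 FPKM at day 3 and 108 at day 30, while NDRG1, with the largest rise from day 0, had 24.6 and 141. PDK1, the kinase that inhibits pyruvate dehydrogenase, had the largest fall of the list from day 0, with 26.7 FPKM there and 9.95 at day 30. The promoter of NDUFA4L2 printed above has GCGTG starting 204 and 20 bases before the RefSeq start. Whether oxygen or the hypoxia factors set its level was not tested.

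COX4I2, the lung-enriched form of subunit IV, is also known to respond to low oxygen. It had 0.199, 1.08, 2.31, 0.730, 0.250 and 0.934 FPKM, with 23 reads at its highest point on day 3. COX4I1 stood at 38.0, 44.8, 30.4, 33.8, 32.6 and 49.9 FPKM. The share of COX4I2 was 7.07% at day 3 (4.59 to 10.3) and 0.520% to 2.34% on the other days. By the length of the principal transcript the share at day 3 was 1.37%, since the table's length for COX4I1 counts all exons of all its transcripts.

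The muscle isoforms remained minor at day 30. COX6A2 (ENSG00000156885, chr16:31427731-31428428), the heart and skeletal muscle form of subunit VIa, had at most 4 reads in any library and 0 at day 6. Its level was 0.598 FPKM at day 30, and its share of the COX6A pair was 5.26% (1.47 to 12.6) there and 1.47% (0.0374 to 7.75) at day 0. These intervals overlap, so a difference was not detectable at this depth. By principal transcript length the shares were 2.82% and 0.772%. The gene AC026471.5 overlaps 46.0% of the exon bases of COX6A2 on the other strand. Strand use in the counting is not given in the sources, and the part of this overlap in the low level was not tested. The loose MEF2-like pattern in the printed promoter of COX6A2 starts 83 bases before the RefSeq start.

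COX7A1 (ENSG00000161281, chr19:36150922-36152869), the heart and skeletal muscle form of subunit VIIa, had 0.342, 1.36, 1.04, 2.26, 0.460 and 1.37 FPKM, or 5, 22, 15, 36, 8 and 17 reads. Its share beside COX7A2 was 0.761%, 3.75%, 3.23%, 6.72% (4.77 to 9.13), 1.53% and 4.22% (2.49 to 6.63). The highest share was that of day 4, when the 10 cardiomyocyte genes summed to 22.1 FPKM, with a median of 0.603. The share at day 6 was lower, when they summed to 419.8 FPKM, with a median of 2.51 and 336 FPKM in MYL7 alone. By principal transcript length the shares of COX7A1 at days 4 and 30 were 4.33% and 2.69%. Between days 4 and 6 the gene was 4.92-fold lower (2.25 to 12.3). COX7A2, the widely expressed form, had 44.6 FPKM at day 0 and 31.0 at day 30. COX7A2L, which helps complexes III and IV to associate, had 15.6, 13.2, 10.7, 15.2, 8.76 and 13.1 FPKM.

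COX6B2, known as the testis form of subunit VIb, had 1.79, 0.912, 1.10, 2.16, 0.334 and 4.63 FPKM. It was 2.59-fold higher at day 30 than at day 0 (2.03 to 3.32) and 13.9-fold higher than at day 6 (8.93 to 22.6). Its share of the pair with COX6B1 was 0.632% at day 6 and 7.24% (6.26 to 8.35) at day 30, and COX6B1 stood at 56.9 and 59.2 FPKM at days 0 and 30. The call against day 0 sat at the threshold, with 1.01, and was lost under scaling by read totals (0.81) and under TMM (0.92). COX6B2 shares 30.9% of its exon bases with AC020922.1 on the same strand, which had 0 reads in all libraries. The other testis forms were near or at 0, since COX8C had 1 to 4 reads per library beside COX8A at 42.0 to 88.3 FPKM, and COX7B2 had 0 reads beside COX7B at 7.36 to 18.5 FPKM. A count of 0 for COX7B2 allows at most a share of 3.48% of the pair at day 6.

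Subunit c, which forms the rotor ring of the ATP synthase, is made from 3 genes whose mature proteins are identical and which differ in their import sequences. ATP5MC2 gave 60.0% of their FPKM at day 0 and 67.0% at day 30, ATP5MC3 23.7% and 26.1%, and ATP5MC1 16.3% (14.9 to 17.8) and 6.87% (5.64 to 8.26). ATP5MC1 had 10.4, 9.81, 3.65, 3.99, 6.66 and 3.10 FPKM and was 3.35-fold lower at day 30 than at day 0 (2.68 to 4.22). ATP5MC2 had 38.1, 38.0, 39.0, 42.2, 38.2 and 30.2 FPKM. By principal transcript length the share of ATP5MC1 was 31.4% at day 0 and 14.7% at day 30. It was higher than by FPKM on both days, and again lower at day 30 than at day 0. The order of the genes depends on the length, since ATP5MC3 then had 13.2% at day 0 and 16.3% at day 30.

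UQCRHL took 2.09% to 3.92% of the FPKM of UQCRH and UQCRHL, or 0.906% to 1.72% by principal transcript length. UQCRH shares 29.4% of its 50-base stretches with other genes, UQCRHL first among them, so reads may have been split or lost between these genes.

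**Figure D4:**
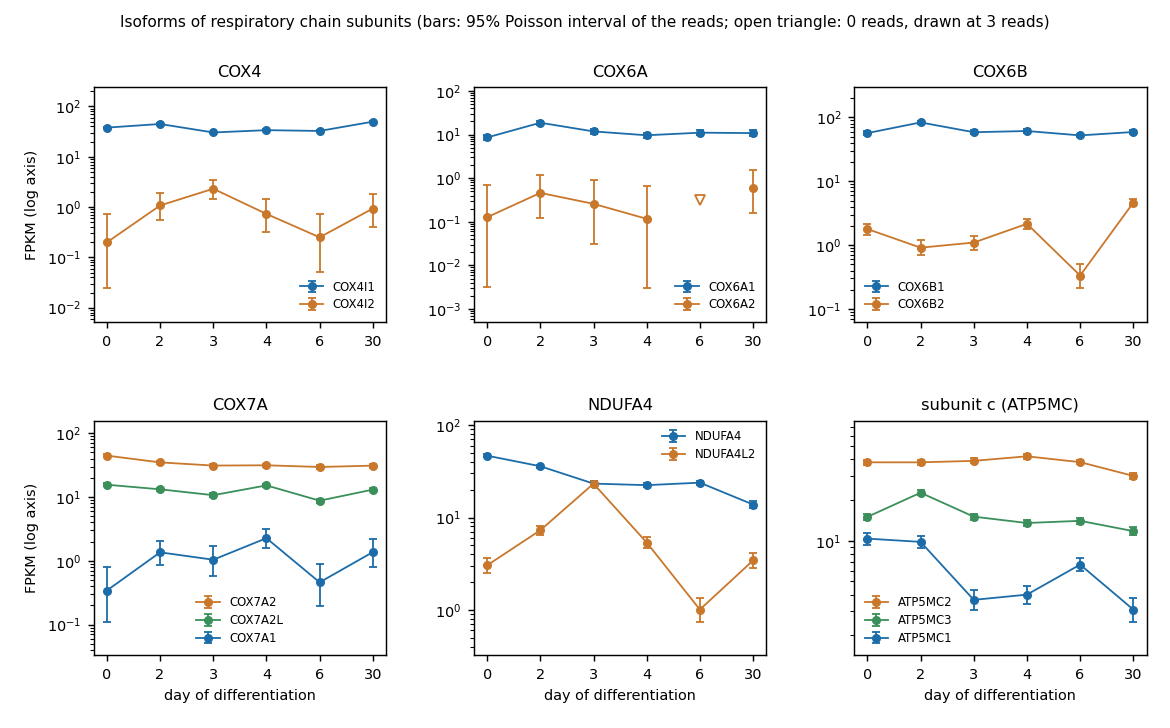
FPKM of 6 isoform sets on log axes against day of differentiation in equal steps, 1 library per day; bars are 95% Poisson intervals of the reads, and the open triangle is COX6A2 at day 6 with 0 reads, drawn at the level of 3 reads. NDUFA4L2 comes nearest to NDUFA4 at day 3 by the gene lengths of the table, COX6A2 and COX7A1 stay under their partners on all days, and ATP5MC1 is lower at day 30 than at day 0.

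The genes around the members were counted in the same way for day 30 against day 0. Of all genes 19.1% were called lower and 25.9% higher in this comparison. Of 4 complex II subunits SDHA was higher (11.0 and 24.0 FPKM) and 0 were lower, SDHC standing at 7.96 and 4.40 FPKM. SDHA has near-identical pseudogene copies with which reads may be shared. Of 2 cytochrome genes CYCS, the mobile carrier between complexes III and IV, was lower (34.5 and 9.14 FPKM). The other, CYC1, encodes cytochrome c1, a subunit of complex III that the name rule leaves out of the members. It had 47.5 and 30.8 FPKM and was not called. Of 42 measured assembly factor genes 18 were lower and 1 was higher, with a median of -0.86. NDUFAF7, an assembly factor of complex I, had 24.3 and 4.15 FPKM at days 0 and 30. The higher one was SCO2, a copper chaperone of complex IV, with 0 reads at day 0 and 4.04 FPKM at day 30 in 1 of its 2 entries in the table.

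Of 13 citrate cycle genes 3 were lower and 0 higher, with the largest fall in SUCLG2 (29.4 and 8.96 FPKM), and DLST, the transferase of the oxoglutarate dehydrogenase complex, had the largest positive difference (27.9 and 40.6 FPKM, not called). Of 12 measured regulators of mitochondrial biogenesis 3 were higher and 1 lower, beside 25.9% and 19.1% of all genes. PPARGC1A, the coactivator PGC-1α, had 0.329 FPKM at day 0 and 2.00 at day 30, and ESRRA (7.22 and 16.8) and PPARA (1.12 and 7.43) were higher as well. TFAM, which packages and transcribes mitochondrial DNA, was the lower one, at 19.4 and 5.27 FPKM, and NRF1, the factor whose site was counted in the promoters, had 5.96 and 4.47 FPKM and was not called.

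The low level of some members has to be read beside their gene models. In GENCODE 29, exons of 26 of the 87 members overlap another gene on the same strand, and exons of 48 overlap one on either strand. At least 1 stretch of 50 bases is shared with another gene by 47 members. Leaving out the readthrough genes, 7 members have over 40% of their 50-base stretches in another gene, overlapping or elsewhere in the genome, namely NDUFA7, NDUFA11, NDUFA13, NDUFB8, NDUFV2, ATP5PO and COX6A1. Their median at day 0 was 3.78 FPKM, against 17.0 FPKM for the other 78. The genes that overlap them were often at 0 themselves, as AP005263.1 beside NDUFV2 was in all 6 libraries. How reads in such stretches were counted is not given in the sources used here, and its part in these levels was not tested.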

How the data were processed

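Per the labels' protocols, poly-A RNA was purified, fragmented and reverse transcribed with random hexamers. Per the submitters' processing notes the tools were CASAVA, HISAT2 and featureCounts 1.5.0-p3, with settings, strand use and genome build not given in the sources used here. The authors deposited 1 table of FPKM values per gene. All 58735 gene positions and lengths equal those of GENCODE 29 (GRCh38, merged exons). Multiplied by gene length, FPKM came in whole steps per library (100% of values within 0.001 read), so reads were recovered. The deposited denominators stood at 0.826 (day 30) to 1.12 (day 6) times the read totals.

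The scale of all differences was log2(FPKM + 1); its pseudocount of 1 shrinks the differences of weakly expressed genes. A gene was measured at 1 FPKM or more in either library and called at a difference of at least 1. Folds are FPKM ratios with exact conditional binomial 95% intervals, levels have exact Poisson intervals and shares exact Clopper-Pearson intervals, conditional on the recovered reads. Reads are not molecules counted by identifiers, so the intervals cover counting error only. A count of 0 is bounded by its exact upper limit, and is drawn at 3 reads. No test across samples was possible with 1 library per day.

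The members and the gene lists were chosen with earlier results of these data known. Named genes are all isoform sets, members called in any comparison, the extremes of each complex, core subunits, and the largest rise and fall of other lists; a few more (NDUFB7, COX5B, UQCRC2, NRF1) and the hypoxia motif were chosen after their values were seen. The values of 1 further member are not reported here. Gene models were compared by exon overlap and by exact 50-base stretches. Alternatives were the pseudocount, the FPKM minimum, scaling by read totals, TMM (own implementation) or TPM, the size of a call, and members without same-strand overlaps. The procedure was tested on simulated reads. Analyses used Python 3.11.15, numpy 2.4.6, pandas 2.3.3, scipy 1.17.1 and matplotlib 3.10.9.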

Additional observations from a re-analysis of the deposited data

How the results depend on the processing

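With 1 library per day no replicate could be left out. No paired analysis was possible because each day has 1 library. No call changed direction under an alternative. The median of day 2 against day 0, near 0, changed sign under each other scaling (up to 0.05) and at an FPKM minimum of 20. At day 30 against day 6 the medians of complexes III and IV changed sign under read totals and TPM (-0.01 and -0.13 under TPM), as did complex IV under TMM (-0.06). Other complex medians changed sign too. At day 2 against day 0 these were complex I under read totals and TPM, and complex V under each other scaling. At day 4 against day 3 it was complex III under TPM (-0.05). At day 6 against day 4 they were complex III (0.06 under read totals, 0.18 under TPM) and complex IV (0.01 under TPM). Beside 3, 4, 1, 3, 4 and 16 members called in the 6 comparisons in order (day 2 against day 0, day 3 against day 2, day 4 against day 3, day 6 against day 4, day 30 against day 6, day 30 against day 0), a difference of at least 0.58 gave 17, 20, 7, 8, 22 and 38. A difference of at least 2 gave 0, 0, 0, 0, 1 and 0. The rule of a counting interval off 1, added after seeing the data, gave 56, 63, 41, 42, 55 and 65. A pseudocount of 0.1 gave 6 (day 2 against day 0), 3 (day 4 against day 3), 5 (day 6 against day 4) and 7 (day 30 against day 6). TPM scaling gave 7 at day 2 against day 0, 3 at day 4 against day 3 and 18 at day 30 against day 6 (5 higher, 13 lower), and read totals 5 and 15 (1 higher, 14 lower) in the first and last of these. Shares of all genes called were not counted under TPM or read totals. An FPKM minimum of 5 gave 1 at day 6 against day 4 and 2 at day 30 against day 6. A minimum of 20 gave 1 at day 2 against day 0, 0 at day 6 against day 4, 1 at day 30 against day 6 and 8 at day 30 against day 0. Without readthrough genes and genes with a copy or same-strand overlap, day 30 gave 2 against day 6 and 9 against day 0. TPM scaling moved the members' median to -0.12 at day 3 against day 2, to 0.25 at day 6 against day 4 and to -0.43 at day 30 against day 6. Over the genes measured on the deposited scale the first and last were -0.13 and -0.44, where all genes gave 0.20 and -0.20. Read totals moved the members' median to -0.53 at day 30 against day 6 and to -0.65 at day 30 against day 0. In each of these the cause was the shift of scale itself, of up to 0.24 (TPM, day 3 against day 2) and -0.44 (read totals, day 30 against day 6) on log2. Of 31 calls of single members 30 were kept under TMM, 30 under TPM, 28 under read totals and 31 with a pseudocount of 0.1, and 0 reversed. The 61 of 80 members highest at day 0 or 2 became 65 without day 30, 51 under TPM and 59 under read totals. The depth limits COX6A2, COX4I2, COX7A1, COX8C and COX7B2, and shares of isoforms move with the gene length used.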
